A study of Bos taurus with 8 samples.

Results

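LOC100848983 is a locus at the start of bovine chromosome 2, and the reads that MIRA-Seq recovered along it are described here library by library. The windows were found by name: all windows of chromosome 2 that carry this symbol were taken, with up to 20 windows on each side. The gene held 43 consecutive windows of 3Kb, from 28434 to 157433 on chromosome 2 of UMD v3.1, and the symbol occurred on no other chromosome. Only 9 windows lie before it on chromosome 2, and 20 were taken after it, so 72 of the 902984 windows of the series were examined. The window that joins the end of chromosome 1 to the first bases of chromosome 2 was not counted. The gene was chosen with the read counts of these libraries in view, so its own values are given as a description, with no test. Tests were kept for the flanking windows, which were chosen by position.

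The libraries came from genomic DNA of dermal fibroblasts at passage 5, without treatment, grown from shoulder skin of 4 Holstein (dairy) and 4 Angus (beef) heifers of the same age. There was 1 library per animal, so each breed mean is a mean over 4 animals, and libraries are numbered within their breed. Breed and rearing cannot be told apart, since the paper describes Holstein calves as fed milk replacer and Angus calves as nursing from their dams. It describes this for the breeds in general and gives no rearing record of these animals. The libraries hold DNA, so the fibroblast identity was not checked with expression markers.

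In MIRA-Seq, sonicated DNA is incubated with a complex of methyl-CpG-binding proteins, and the fragments that bind are sequenced. A stretch with many methylated CpG sites, or with more copies in the genome, yields more reads, and no input library was used here, so methylation and copy number cannot be told apart. Cattle autosomes are acrocentric, so one end of each lies beside the centromere, where satellite and duplicated sequences are common and often heavily methylated. A LOC symbol is a placeholder for a locus without an assigned name. The files place LOC100848983 on the + strand and assign no coding exon to any of its windows, and it had no entry in the RefSeq gene table of ARS-UCD2.0 that was used for names, so no function is given here. The named loci after it are LOC784857, LOC784891 and LOC784915 within the flank, then LOC784948, which the RefSeq table lists as the olfactory receptor pseudogene OR5F2EP. Farther on come LGSN, a lens protein related to glutamine synthetase, and OCA2, a melanosomal protein needed for pigmentation.

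The counts over windows summed to between 18691111 and 35525554 reads per library. Counts were divided by these totals to give CPM, and a detection floor of 3 reads corresponded to 0.0844 to 0.161 CPM. Holstein 1 and Angus 3 stood apart in how reads were spread, with 69.0% and 72.4% of reads in the top 1% of windows against 46.8 to 57.4% in the other 6. Their TMM factors, which correct library sizes for such concentration, were the lowest, at 0.817 and 0.677. Values are therefore also given as TMM-scaled CPM, or relative to the gene's own windows, where the scaling matters. PCR copies of a molecule are not independent, so the intervals and floors account for counting error alone.

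LOC100848983 was densely covered in all 8 libraries. Its windows averaged 4.21 CPM, against a median of 0.245 CPM over the windows of chromosome 2, and 99.2% of the windows of that chromosome lay below this mean. All 43 windows exceeded the chromosome median. The CPM filter of the study, 1 or more in 4 or more samples, was passed by 41 of the 43 windows (95.3%), compared with 8.71% of the windows of chromosome 2 and 12.8% of all windows. Among 8201 named genes with at least 10 windows, 146 had a higher mean CPM per window, which places the gene above 98.2% of them. The median of these long genes was 0.434 CPM per window.

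The start of chromosome 2 was compared with the starts of the other autosomes. Its first 60 windows include all 43 windows of the gene, so its level here is largely that of the gene. The gene was chosen with its reads in view, so the ranks below are a description and no further support. Over the first 60 windows the median level was 3.60 CPM on chromosome 2, the highest of the 29 autosomes, and the other autosomes had a median of 0.301 CPM and a highest value of 2.59 CPM. On chromosome 2, 52 of these 60 windows passed the CPM filter, 41 of them windows of the gene, while a median of 10 did so on the others. By the mean over the first 60 windows, which a few very deep windows can set, chromosome 2 (4.33 CPM) did not rank first: chromosome 19 had 23.0 CPM, chromosome 16 had 16.7 CPM and chromosome 14 had 13.6 CPM. On chromosome 16, 59 of the 60 windows passed the filter.

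Reads were unevenly distributed along the gene. The first window held 6 to 20 reads per library and averaged 0.577 CPM, and the second 1.26 CPM. From window 3 to window 26 (34434 to 106433) the window means ranged from 0.994 to 6.04 CPM, with a median of 2.59 CPM. The level then increased, and windows 29 to 38 (112434 to 142433) averaged between 4.85 and 8.87 CPM. Window 40 had the highest mean of the gene, 18.6 CPM, but its median over the libraries was 6.18 CPM. Window 41 averaged 5.47 CPM, with a median of 5.49 CPM. At the far end the level dropped sharply, to 0.327 CPM in window 42 and 1.10 CPM in window 43.

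**Figure D1:**
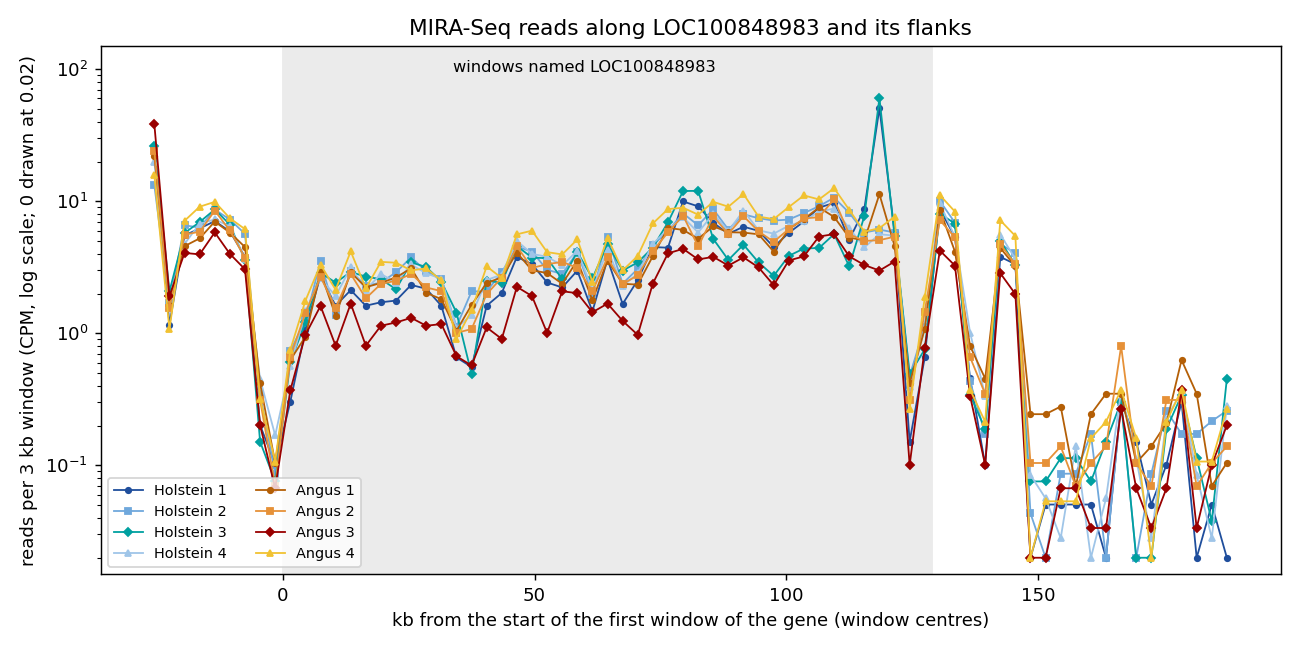
Reads per 3 kb window (CPM, log scale) along LOC100848983 (shaded) and its flanks in the 4 Holstein and 4 Angus libraries, plotted at window centres in kb from the start of the gene's first window. Holstein 1 and Holstein 3 rise to 50.7 and 60.5 CPM in window 40, where the other 6 libraries lie between 2.99 and 11.3 CPM, and Holstein 3 dips below most libraries in windows 29 to 38.

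Window 40 (145434 to 148433) separated individual animals rather than breeds. Holstein 1 held 1002 reads and Holstein 3 held 1599, while Holstein 2 held 141 and Holstein 4 held 200. Angus 1 to 4 had counts of 324, 146, 89 and 117. Both high libraries were Holstein, and both remaining Holstein libraries lay within the range of the Angus libraries.

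As shares of the library total, the counts of window 40 came to 50.7, 6.10, 60.5 and 5.63 CPM in Holstein 1 to 4, and 11.3, 5.08, 2.99 and 6.26 CPM in Angus 1 to 4. Holstein 1 was 8.64 times and Holstein 3 10.3 times the median of the other 6 libraries, 5.87 CPM. Angus 1 came next, at 2.01 times the median of the 5 libraries that remained. The window took up 24.3% of all reads of the gene in Holstein 1 and 27.8% in Holstein 3, compared with 2.74 to 6.91% in the other 6 libraries.

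The reads in window 40 were not stacked at 1 narrow place, though how evenly they were spread cannot be told from the depths. The highest depth of a base was 101 in Holstein 1 and 152 in Holstein 3, which is 3.09 and 2.92 times the mean depth of the window. In the other 6 libraries this ratio lay between 2.46 and 4.38. By comparison, it was 13.4 to 17.9 in the first whole window of chromosome 2, where reads were stacked in all 8 libraries.

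Among the 115360 windows that passed the CPM filter, window 40 was the only one in which Holstein 1 and Holstein 3 were both at least 3 times every other library, in CPM and in TMM-scaled CPM. Over all 28 pairs of libraries, 4 windows met this rule, in 3 pairs. The coefficient of variation (CV) over the 8 libraries was 128% in TMM-scaled CPM, against a median of 18.8% over all windows past the filter, and 58 of all these windows had a larger CV, 7 of them on placed chromosomes. These ranks describe a window picked for its spread and carry no test.

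Libraries were next compared inside the gene, which removes a factor common to all windows of a library. Each library was scaled to its own mean over windows 3 to 26. The CV of TMM-scaled CPM had a median of 17.5% there, near the 18.8% over all windows past the filter. In TMM-scaled CPM this stretch ran from 2.16 per window in Angus 3 to 3.23 in Angus 4. Relative levels of Angus 3 therefore come out higher than with TMM library sizes. The stretches below were drawn after the values had been seen. Scaled in this way, window 40 had a level of 21.9 in Holstein 1 (95% exact Clopper-Pearson interval 20.1 to 23.9) and 19.2 in Holstein 3 (18.0 to 20.6). Angus 1 had 4.16 (3.69 to 4.69), and the remaining 5 libraries had between 1.66 and 2.04. Angus 1 thus lay between the high and the low libraries. The intervals hold counting error and no variation between animals, and they are not a test.

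**Figure D2:**
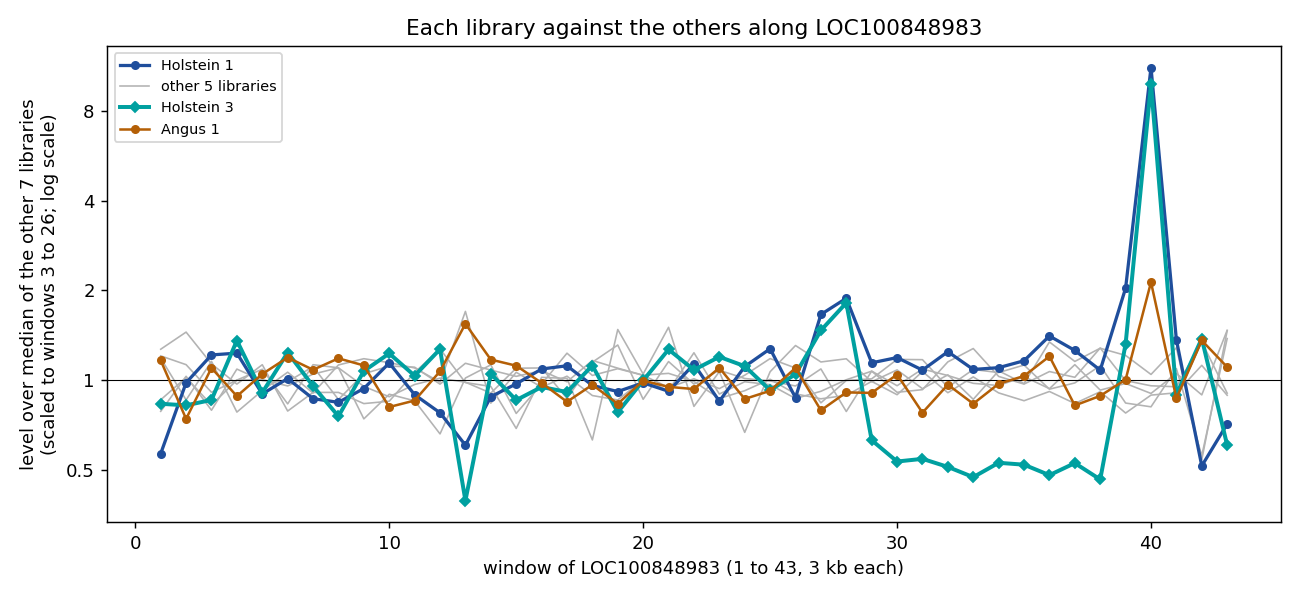
Level of each library over the median of the other 7 (log scale) in windows 1 to 43 of LOC100848983, after scaling each library to its own windows 3 to 26. Holstein 3 stays between 0.464 and 0.628 in windows 29 to 38, and Holstein 1 and Holstein 3 reach 11.2 and 9.86 in window 40, where Angus 1 is at 2.13.

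The same 2 Holstein libraries were also high in other windows of this end of the gene, with smaller differences. Windows 27 and 28 (106434 to 112433) had levels of 4.13 in Holstein 1 and 3.81 in Holstein 3, and between 2.07 and 2.73 in the other 6 libraries. In window 39, Holstein 1 had 3.78 and Holstein 3 had 2.46, while the other 6 ranged from 1.44 to 2.25. Holstein 3 lay close to the highest of these in that window. In unscaled CPM, Holstein 1 and Holstein 3 were both above every other library in 4 of the 41 windows of the gene that passed the filter, against 0.394% of all such windows. These 4 were windows 27, 28, 39 and 40. The pair was picked for its values in window 40 and neighbouring windows are not independent, so this count is a description and not a test.

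Windows 29 to 38 showed another pattern, in Holstein 3 only among the 8 libraries. Over these 10 consecutive windows Holstein 3 held 1088 reads, while Holstein 1, 2 and 4 held 1305, 1866 and 2530, and Angus 1 to 4 held 1811, 1986, 1148 and 1812. Relative to windows 3 to 26, the level was 1.31 in Holstein 3 (95% interval 1.22 to 1.41). It was 2.85, 2.58 and 2.298 in Holstein 1, 2 and 4, and 2.33, 2.50, 2.63 and 2.57 in Angus 1 to 4. The 7 other libraries thus lay within a narrow band, and Holstein 3 lay below all of them.

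Holstein 3 was low in each of the 10 windows, at 0.464 to 0.628 times the median of the other 7 libraries, with a median of 0.523. The difference began and ended within single windows: Holstein 3 was at 1.47 and 1.82 times that median in windows 27 and 28, and at 1.32 times in window 39. In windows 3 to 26 its median ratio was 1.04. With TMM library sizes in place of the gene's own windows, the mean over windows 29 to 38 was 3.78 CPM in Holstein 3 and between 5.70 and 8.29 CPM in the others. In plain CPM it was 4.12 in Holstein 3, and there Angus 3, the library with the most concentrated reads, was lower at 3.86.

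**Figure D3:**
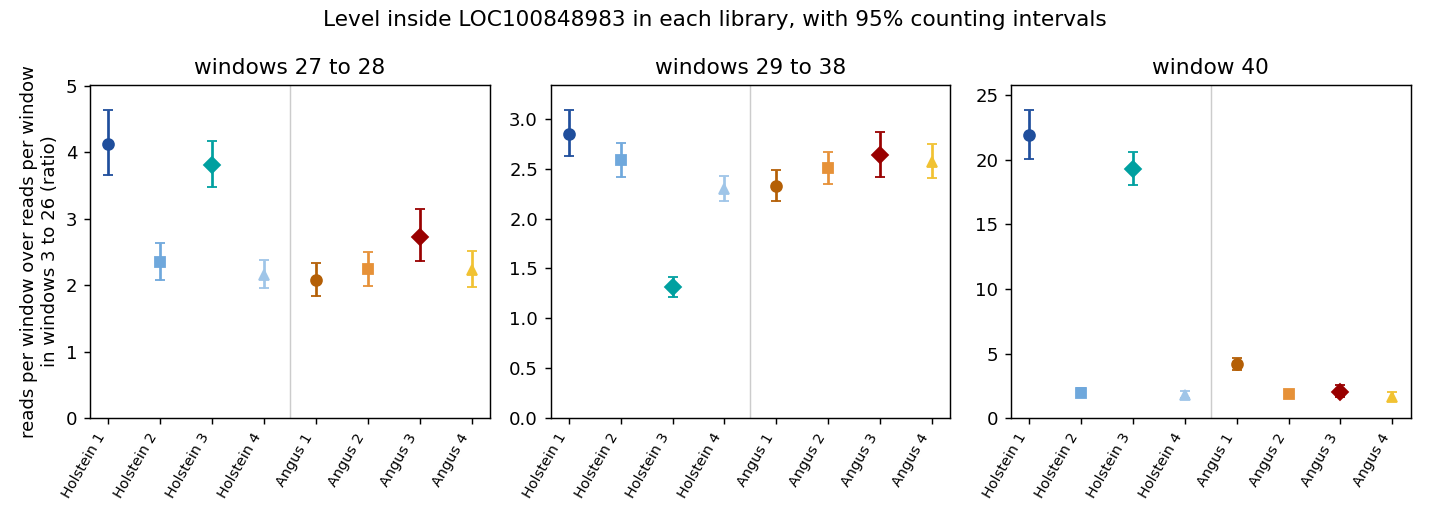
Reads per window in 3 stretches of LOC100848983 over reads per window in windows 3 to 26 of the same library, with 95% exact counting intervals, for Holstein 1 to 4 and Angus 1 to 4. Holstein 1 and Holstein 3 are highest in windows 27 to 28 and in window 40, and Holstein 3 is lowest, at 1.31, in windows 29 to 38.

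Such long low stretches occurred elsewhere in the genome. Runs of at least 9 consecutive windows past the filter, each at or below 0.7 times the median of the other 7 libraries in TMM-scaled CPM, were counted in every library, and 11 were found. Holstein 3 had 3 of them: the 10 windows in LOC100848983, a run of 15 windows on chromosome 24 and a run of 9 on unplaced scaffolds. The 11 runs were not 11 separate places. Holstein 4 was low in the same 9 windows on unplaced scaffolds, and on chromosome 29 a run of Holstein 2 overlapped that of Angus 4. The unplaced run ends at a lower position than it starts, so its windows may not be contiguous. The longest run had 30 windows and belonged to Holstein 2, on chromosome 1. Holstein 1, Angus 1, Angus 2 and Angus 3 had no run of this length.

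Window 13 (64434 to 67433) was the most variable of windows 3 to 26. Holstein 1 to 4 held 11, 48, 13 and 49 reads in it, and Angus 1 to 4 held 47, 31, 17 and 28 reads. The highest depth of a base was 9.68 to 14.3 times the mean depth over the 8 libraries. These few reads were thus partly stacked at a narrow place, which limits what the window shows. Holstein 1 and Holstein 3 were low here, at 0.556 and 0.492 CPM, and Holstein 2 was highest with 2.08 CPM. Angus 3 was also low in CPM, at 0.571. After scaling to windows 3 to 26, Holstein 3 was at 0.394 and Holstein 1 at 0.605 times the median of the others, while Angus 3 was at 0.981 and the other 5 lay between 0.984 and 1.70. In TMM-scaled CPM the same 2 Holstein libraries were lowest, at 0.451 and 0.681, with Angus 3 at 0.844.

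The spread within Holstein was therefore set by different libraries in different places. In plain CPM, Angus 3 and Angus 4 most often lay at the ends of the range. In Holstein, the CV of CPM over the 41 windows past the filter had a median of 20.5%, with the highest values in window 40 (94.3%) and window 13 (66.8%). In Angus, the median was 36.6% and the highest value was 55.2%, also in window 40. Angus 3 was the lowest library in 35 of the 43 windows and Angus 4 the highest in 27. With TMM-scaled CPM the medians were 16.7% in Holstein and 18.0% in Angus, close to the medians over all windows past the filter, 15.9% and 19.1%. In windows 29 to 38 the TMM-scaled CV was 23.3 to 38.2% in Holstein and 13.1 to 25.9% in Angus.

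The sum over all 43 windows was 208, 192, 217 and 178 CPM in Holstein 1 to 4, and 164, 167, 93.7 and 229 CPM in Angus 1 to 4. Holstein thus averaged 199 ± 17.4 CPM (SD, n = 4), while Angus averaged 163 ± 55.2 CPM (SD, n = 4). The breeds overlapped, with a difference of 35.5 CPM. Without window 40 the means were 168 ± 13.7 and 157 ± 53.9 CPM, and the difference was reduced to 11.2 CPM. Without Angus 3 the difference was 12.3 CPM, and leaving out each other library in turn gave up to 57.4 CPM. The breed with the wider spread depended on the scaling: in TMM-scaled CPM the sums were 146 to 255 in the Holstein libraries (193 ± 46.6, SD, n = 4) and 138 to 196 in the Angus libraries (165 ± 24.9, SD, n = 4). The difference was then 28.3 CPM, and 2.98 CPM without window 40.

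**Figure D4:**
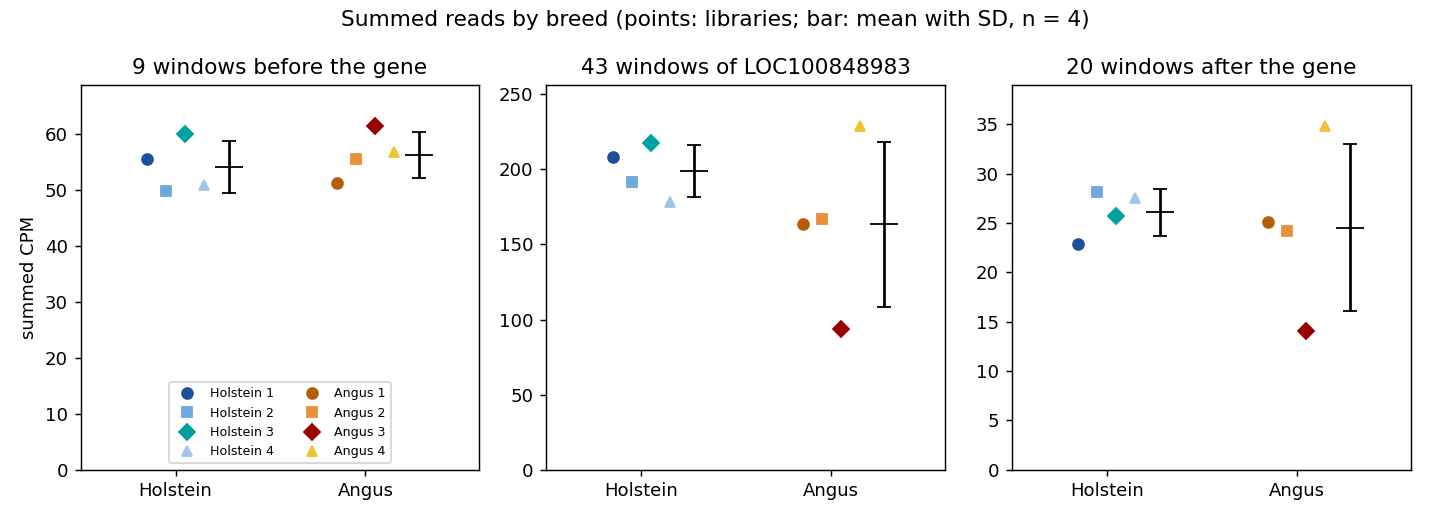
Summed CPM of the 9 windows before LOC100848983, its 43 windows and the 20 windows after it in each library, with the breed mean and SD (n = 4). The breeds overlap in all 3 panels, and in the gene Angus libraries spread from 93.7 to 229 CPM, more widely than Holstein libraries at 178 to 217 CPM, while in TMM-scaled CPM, not plotted, the Holstein libraries spread more widely.

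Read counts were compared between the breeds over all windows with edgeR's likelihood-ratio test, the test named in the methods of the study. This fit called more windows than the paper reported at its thresholds, and the source of the difference was not tested. Log2 fold changes are Holstein over Angus with TMM library sizes. Over the 41 windows of the gene the median was 0.01, with 21 positive and 20 negative values, and the median over all 115360 windows was near 0 as well. With total counts as library sizes, 28 were positive and the median was 0.11. Apart from window 40 the values ranged from -0.60 to 0.59, so none reached a fold change of 2. Window 40 had a log2 fold change of 2.28 (SE 0.55), with a mean for Holstein of 30.7 ± 28.99 CPM (SD, n = 4) and for Angus of 6.41 ± 3.54 CPM (SD, n = 4). It fell to 1.73 without Holstein 1 and 1.86 without Holstein 3. In CPM, the breeds were apart, with no overlap of their libraries, in 0 of the 41 windows, compared with 1.31% of all windows past the filter. In TMM-scaled CPM they were apart in 1 window, window 43, against 2.63% of all windows. There Holstein 1 to 4 had 0.805, 1.005, 0.694 and 0.903 and Angus 1 to 4 had 1.14, 1.33, 1.14 and 1.601, which is a log2 fold change of -0.60 (SE 0.22).

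The flanking windows gave no breed difference that passed the thresholds of FDR < 0.1 and a fold change of at least 2. Of the 29 flanking windows, 11 passed the CPM filter and 0 of these were called by edgeR's likelihood-ratio test, where 0.231% of all windows were called. None of the 11 had an unadjusted p under 0.05, the smallest being 0.231, and 0 were also called by edgeR's quasi-likelihood test (0.122% of all windows) and by DESeq2 (0.122%). Their log2 fold changes ranged from -0.47 to 0.15.

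The 9 windows before the gene summed to 55.6, 49.9, 59.97 and 51.0 CPM in Holstein 1 to 4 and to 51.3, 55.6, 61.4 and 56.9 CPM in Angus 1 to 4. The means were 54.1 ± 4.63 and 56.3 ± 4.16 CPM (SD, n = 4), a difference, Holstein minus Angus, of -2.20 CPM (exact two-sided permutation test, p = 0.457, adjusted over both sides 0.714). The 20 windows after the gene summed to 22.9, 28.2, 25.7 and 27.5 CPM in Holstein 1 to 4 and to 25.1, 24.2, 14.1 and 34.8 CPM in Angus 1 to 4. The means were 26.1 ± 2.35 and 24.5 ± 8.47 CPM (SD, n = 4), a difference of 1.53 CPM (exact two-sided permutation test, p = 0.714, adjusted 0.714). The breeds overlapped on both sides, and the smallest p that 4 against 4 allow is 0.0286.

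The flanks had their own pattern of dense and sparse windows. The first whole window of chromosome 2 (1434 to 4433) held 293 to 1142 reads and averaged 23.1 CPM, more than any window of the gene. Windows 3 to 7 before the gene (7434 to 22433) averaged 4.27 to 7.86 CPM, and the 2 windows next to the gene dropped to 0.301 and 0.0976 CPM. After the gene, the first 2 windows had 8.46 and 5.68 CPM, windows 3 and 4 had 0.552 and 0.240 CPM, and windows 5 and 6 had 4.80 and 3.54 CPM. From 175434 onward the level fell away, with 14 windows at 0.0510 to 0.383 CPM and 0 to 23 reads per library. All 3 LOC genes of the flank lie in that sparse stretch.

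The flanks held no departure of Holstein 1 and Holstein 3 as large as in windows 27, 28 and 40, or of Holstein 3 as large as in windows 29 to 38. Scaled to windows 3 to 26 of the gene, Holstein 3 lay between 0.698 and 1.23 times the median of the other 7 in the 11 flanking windows past the filter, with a median of 0.971. Holstein 1 lay between 0.885 and 1.36, with a median of 1.19, and was the highest library in both windows next to the gene on its far side, at 3.76 and 2.31 times its level in windows 3 to 26. The median was highest in Angus 3, at 1.28, and lay between 0.897 and 1.02 in the other 6 libraries, so both libraries with concentrated reads had the highest medians. The widest departure was that of Angus 3, at 3.23 times in the first window of chromosome 2 and 2.42 times in the second. Angus 3 was also the library with the largest share of reads on unplaced scaffolds, 26.1%, against 10.6 to 19.98% in the other 7. The part of this share in that result was not tested.

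The summed CPM of the gene was set beside the flanks and the share of reads on unplaced scaffolds over the 8 libraries, as a description with no p, since the values of the gene were in view when it was chosen. With the flanks, Pearson's r was 0.718 and Spearman's rho was 0.833 in CPM. Without Holstein 3 and Angus 4, the samples farthest from the median of the flanks, r was 0.701, and with TMM-scaled CPM over all 8 libraries it was 0.163. With the share on unplaced scaffolds, r was -0.663 and rho was -0.452 in CPM. Without Holstein 1 and Angus 3 that r was -0.245, and with TMM-scaled CPM over all 8 libraries it was 0.0109. The measures share the library total as a divisor, and a breed holds too few samples for a value of its own.

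The genes whose summed level was most like that of LOC100848983 over the 8 libraries lay on other chromosomes. Among 19371 genes, the 5 with the highest Pearson's r of log2(CPM + 0.5) were LOC783231 on chromosome 17 (0.961), LOC788721 on chromosome 15 (0.956), SHISA4 on chromosome 16 (0.955), FAM71B on chromosome 7 (0.952) and KBTBD7 on chromosome 12 (0.946). They held 2 to 3 windows each, and 38 genes had an r of at least 0.9. The median r over all genes was 0.470. All values share library totals, and what sets this level was not tested, so these correlations are a description.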

How the data were processed

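Reads were filtered for quality and mapped to UMD v3.1 by the authors in NextGENe 2.3.4, and raw read counts per 3Kb window were deposited without normalization, with the mean and highest depth as an unscaled coverage signal. CASAVA 1.7 is named in the submitters' processing notes. How duplicates and multiply mapping reads were treated is not given in the sources used here, and counts in duplicated sequence depend on it.

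CPM was computed per library total over windows. The breeds were compared in R 4.3.3 with edgeR 4.0.16 (TMM, likelihood-ratio test, Benjamini-Hochberg adjustment, CPM of 1 or more in 4 or more samples, 115360 windows). Standard errors were derived from each fold change and its p. DESeq2 1.42.0 was an alternative. On simulated counts with 200 changed windows and a dispersion of 0.12 in every window, the test recovered 64.5%, and 10.4% of its calls were false. The fitted common dispersion was 0.036 and that of window 40 was 0.264. The simulation also had no difference in read concentration between libraries, so its rates do not carry over directly to these data. The permutation p of the correlations with the gene are not given, because its values were known when it was chosen. Exact tests and correlations used scipy 1.17.1 under Python 3.11.15.

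Windows named in the text were those of the gene, its flanks and the 5 most alike genes. The gene, lists and stretches were chosen with earlier results of these data known. Nothing in the labels pairs same-numbered animals. Counts of library pairs within a breed differed beyond sampling noise (chi-square per window 8.74 to 39.6). LOC784948 was matched to RefSeq by its gene number.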

Additional observations from a re-analysis of the deposited data

Results flagged for a closer look

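In groups of 4 libraries, a library was noted where its gap to the nearest other exceeded, as a share of the group's range, Dixon's 95% critical value for 4 samples. Of 36 groups checked, 3 were noted. The rule notes about 1 in 20 groups by chance when groups are chosen beforehand. All 3 noted here are stretches of the gene, which were drawn with their values in view. The rule therefore served to pick values for a closer look and is not a test. Over windows 3 to 26, Holstein 1 was the lowest Holstein library at 2.32 CPM per window, with TMM-scaled values closer together (SD 0.1495 around a mean of 2.76). In window 40, Angus 1 was the highest Angus library at 4.16 times its level in windows 3 to 26. In window 41, Holstein 1 was the highest Holstein library at 2.53 times.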

How the results depend on the processing

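None of the flanking windows was called under any of the 16 other fits, and the median log2 fold change of the gene stayed between -0.07 and 0.11. Over all windows, 267 were called, and the count was 141 with the quasi-likelihood test, 141 with DESeq2, 905 without a CPM filter, 163 when all 8 samples had to reach the CPM minimum, 153 on placed chromosomes only and 145 to 564 when each library was left out, the lowest without Holstein 4 and the highest without Holstein 1. The flank differences were within the spread and changed sign: the mean of log2(CPM + 0.5) gave 0.0326 before and -0.0368 after the gene, and leaving out the first window of chromosome 2, chosen after seeing the data, gave 1.61 before it. TMM library sizes gave -8.64 before and 0.0894 after the gene, and library sizes over placed chromosomes gave -6.07 and 0.679 (exact permutation p between 0.343 and 0.971). Leaving out each library gave -4.15 to -0.485 before and -1.95 to 4.96 after the gene, the lowest after it without Angus 3. The relation of the gene with unplaced scaffolds had r = 0.0109 and that with the flanks r = 0.163 with TMM library sizes. The latter had rho = 0.833, and without window 40 and the first window of chromosome 2, windows chosen after seeing the data, r was 0.981, or 0.894 with TMM library sizes too; these are descriptions with no p, and the cause was not tested. Same-numbered samples did not deviate together (correlations -0.218 to 0.105). The replicate block called 346 windows and gave window 40 a log2 fold change of 1.502, and pairing by number gave exact sign-flip p = 0.375 before and 0.750 after the gene. A pull-down without input, at 89 to 324 reads in most libraries of window 40, limits what these counts resolve.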
